A study of Mus musculus with 8 samples.

Results

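The Hox genes are 39 homeobox transcription factor genes that lie in 4 clusters of the mouse genome. They were examined here in wire-injured carotid arteries of 8 mice on 1-colour Agilent arrays, with 1 array per mouse. The members were all noncontrol probes whose gene name on the array is Hoxa, Hoxb, Hoxc or Hoxd followed only by digits, which gave 44 probes of 39 genes among 55681 probes and 36413 gene names. The gene family was chosen by the miR-126-/- against miR-126+/+ differences of central Hoxb genes on these same arrays, so Hox differences are given as a description, without a test.

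The 4 miR-126-/- mice (miR-126-/-/ApoE-/-) lacked both the microRNA miR-126 and apolipoprotein E. The 4 miR-126+/+ mice (miR-126+/+/ApoE-/-) carried miR-126 and also lacked apolipoprotein E, so every artery came from an ApoE-deficient, hypercholesterolaemia-prone animal. Per the labels, all animals were females aged 6 weeks on a western-type diet, their strain background was mixed, and RNA was taken 14 days after injury. Wire injury strips the endothelium and is followed by growth of a smooth muscle rich inner layer, and miR-126 is a microRNA enriched in endothelial cells. The labels name no cell type restriction of the miR-126 deletion and no separation of vessel layers, so each value stands for the whole excised tissue, in which fewer cells of a type and less RNA per cell cannot be told apart.

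Hox proteins specify position along the body axis. In each cluster the genes are numbered by paralog group, and low-numbered genes are switched on first and furthest forward in the embryo, while high-numbered genes act towards the tail. Adult fibroblasts, vascular smooth muscle cells and adipose depots keep a Hox pattern that depends on where in the body they lie. The clusters are held silent by Polycomb complexes, opened by Trithorax complexes, induced by retinoic acid and caudal (Cdx) proteins, and their products bind DNA with TALE homeodomain partners of the Pbx and Meis families.

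The clusters also carry microRNA genes that act on Hox transcripts, and their mature sequences are shown beside that of the deleted microRNA because the seed, bases 2 to 8, sets which transcripts a microRNA pairs with. The sequences are from RefSeq (GRCm38.p6), with the seed in capitals.
miR-126a-3p: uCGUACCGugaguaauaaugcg
miR-10a-5p: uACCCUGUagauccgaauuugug
miR-10b-5p: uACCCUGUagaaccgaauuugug
miR-196a-5p: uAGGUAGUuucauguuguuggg
miR-196b-5p: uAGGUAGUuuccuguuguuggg
The miR-10a-5p and miR-10b-5p sequences share a seed, as do miR-196a-5p and miR-196b-5p, and neither seed is that of miR-126a-3p. On this build miR-126a-3p lies at chr2:26591402-26591423 on the plus strand. Of the cluster microRNAs, miR-10a-5p lies at chr11:96317186-96317208 in the Hoxb cluster and miR-196b-5p at chr6:52230129-52230150 in the Hoxa cluster. The microRNAs of the Hox clusters had no probe under their gene names.

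Each Hox value below is the log2 processed signal of a probe minus the 75th percentile of its array, so 0 is the level of a fairly bright probe and about -5 is the limit of detection. The lowest signal counted as well above background ran from -5.19 to -4.80 on the miR-126-/- arrays and from -5.34 to -4.53 on the miR-126+/+ arrays. Signals of different probes do not rank transcripts by amount, so levels are compared between genotypes within a probe only. The tested probes had to rise well above background on 3 or 4 arrays of 1 genotype, as 26 Hox probes of 25 genes did. Because Hoxb7, Hoxb8, Hoxd3, Hoxd11 and Hoxc10 passed that filter through 1 genotype only, the tested probes do not stand for all members.

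All probes with a finding are 60 bases long, and their 3′-most 30 bases, in the sense of the transcript, are shown for the 6 genes of the Hoxb and Hoxa clusters whose genotypes differed without overlap. Capitals mark AATAAA, the letters of the usual polyadenylation signal, which occurred in this 30-base window in 7 of 44 Hox probes and in 8.16% of all probes.
Hoxb5: atggaatcagaaataatcctcagtgtaaaa
Hoxb6: cacggttcaatggtagattcgctgtcccct
Hoxb7: tgttttgtaagccctctttgaagctgtctt
Hoxb8: gagttacAATAAAgtttacaagcgagaacc
Hoxa5: gataagacacaaattaacttgttcaacgtg
Hoxa7: attgattttagttacaaaaatggggggaaa
On mouse build mm9 the probes lie at chr11:96167130-96167189 (Hoxb5), chr11:96162563-96162622 (Hoxb6), chr11:96151211-96151270 (Hoxb7) and chr11:96146576-96146635 (Hoxb8) on the plus strand, and at chr6:52152049-52152108 (Hoxa5) and chr6:52165626-52165685 (Hoxa7) on the minus strand. The longest run of identical bases between probes of different Hox genes was 11 of 60 bases, among all 44 probes.

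Across the 4 clusters, 23 Hox genes were well above background on at least 3 arrays in miR-126-/- arteries and 22 in miR-126+/+ arteries, and 20 were so in both. A further 14 genes were so in neither genotype. Counted per array, 24, 24, 25 and 22 Hox genes were detected in the miR-126-/- mice, and 23, 21, 21 and 22 in the miR-126+/+ mice. The fourth miR-126-/- array gave values for only 37 genes, because a dim area of that array, which covered the only Hoxa7 and Hoxb8 spots, was left out.

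Detection did not reach the highest-numbered genes of any cluster. In the Hoxa cluster (11 genes, chromosome 6) the genes from Hoxa2 to Hoxa9 were detected in both genotypes, and Hoxa10, Hoxa11 and Hoxa13 were not. In the Hoxb cluster (10 genes, chromosome 11) detection reached Hoxb8 in miR-126-/- arteries and Hoxb6 in miR-126+/+ arteries, with Hoxb1, Hoxb9 and Hoxb13 not detected in either. In the Hoxc cluster (9 genes, chromosome 15) Hoxc4, Hoxc5 and Hoxc6 were detected in both genotypes, and Hoxc10 on 2 miR-126-/- arrays against 3 miR-126+/+ arrays, while Hoxc8, Hoxc9, Hoxc11, Hoxc12 and Hoxc13 did not pass in either. In the Hoxd cluster (9 genes, chromosome 2) Hoxd4, Hoxd8, Hoxd9 and Hoxd10 were detected in both, Hoxd3 in miR-126-/- arteries and Hoxd11 in miR-126+/+ arteries, while Hoxd1, Hoxd12 and Hoxd13 did not pass in either. Single arrays rose above background for genes otherwise undetected, among them 1 array of each genotype for Hoxa13. The plot of signals by paralog group shows this order.

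**Figure D1:**
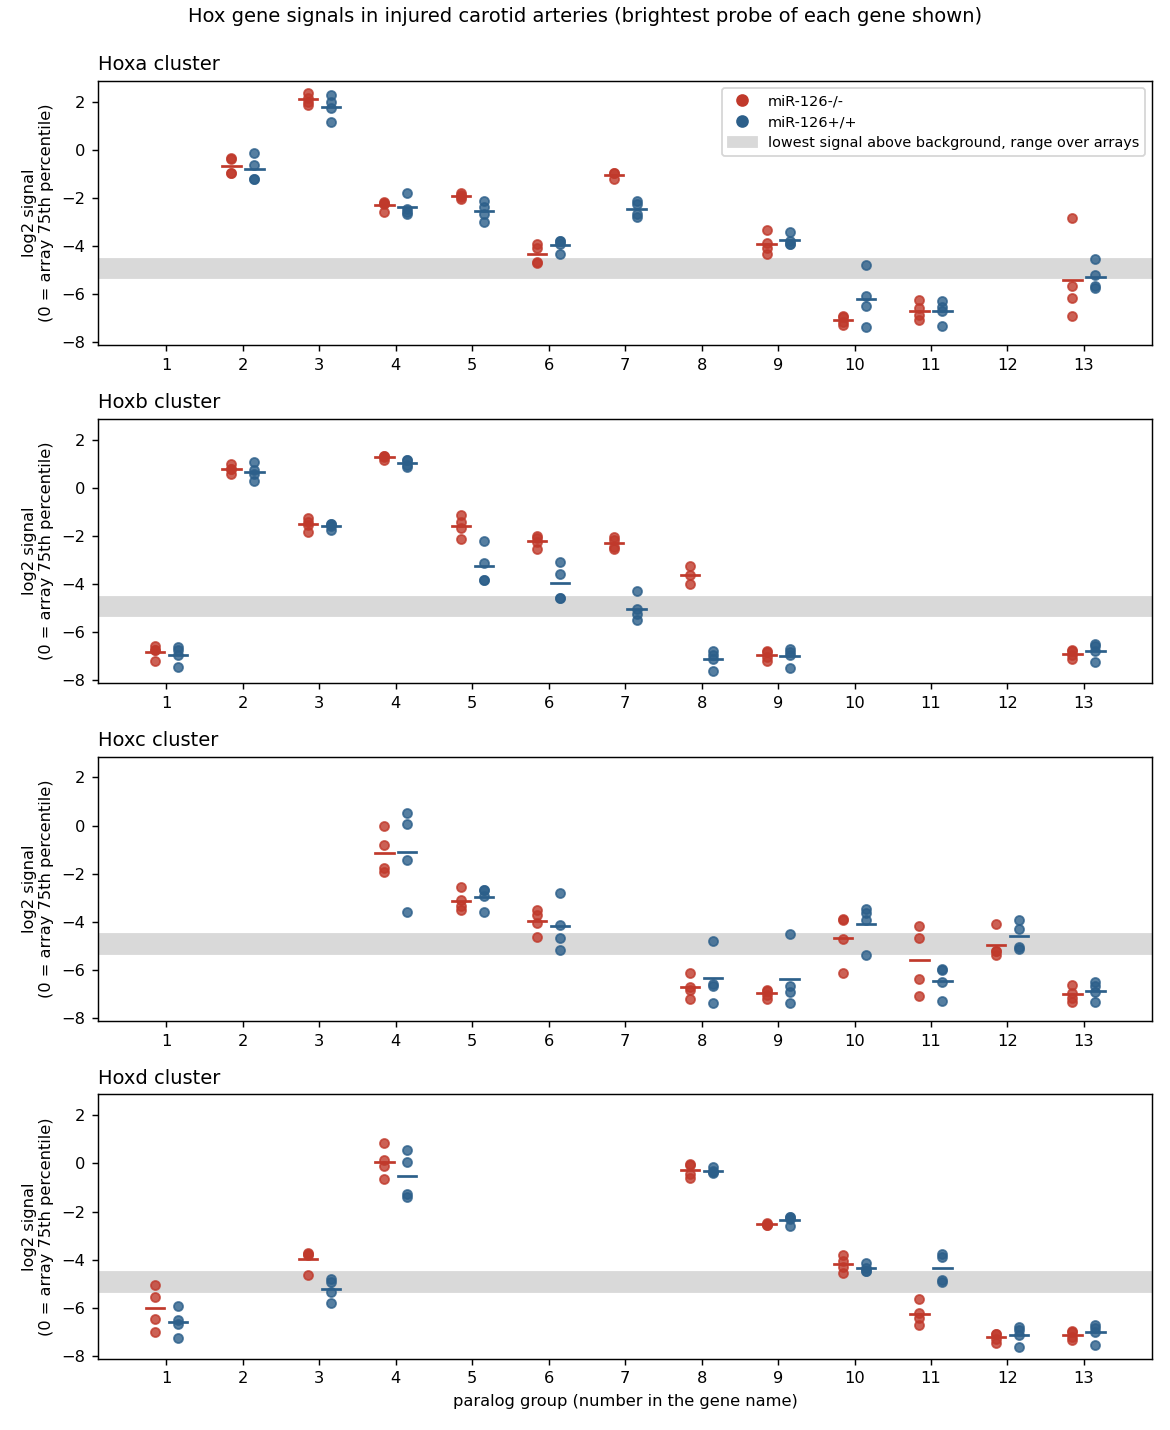
Log2 signal of the brightest probe of each Hox gene shown (0 is the 75th percentile of the array) by paralog group, 1 panel per cluster. Points are mice, red for miR-126-/- and blue for miR-126+/+, horizontal lines are genotype means (n = 4, or 3 for Hoxa7 and Hoxb8 in miR-126-/-), and the grey band is the range over arrays of the lowest signal well above background. The red points of Hoxb5 to Hoxb8 and Hoxa7 lie above all blue points, those of Hoxd11 below them.

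The central Hoxb genes separated the genotypes as a run of 4 neighbours. Hoxb5, Hoxb6, Hoxb7 and Hoxb8 were each higher in every measured miR-126-/- artery than in any miR-126+/+ artery, by a fitted 1.65 and 1.74 log2 units for Hoxb5 and Hoxb6, by at least 5.55-fold for Hoxb7 and by at least 2.33-fold for Hoxb8. The bounds hold for the main background correction only: with normexp correction the fitted log2 differences were 1.09 for Hoxb5, 0.83 for Hoxb6, 1.17 for Hoxb7 and 0.84 for Hoxb8, of which the last pair lies below the bounds. The normexp setting adds an offset of 50 to each signal, which makes the log2 differences of dim probes smaller. Their neighbours Hoxb2, Hoxb3 and Hoxb4 overlapped between genotypes, and Hoxb9 and Hoxb13 stayed below background on all 8 arrays. Hoxb5 to Hoxb8 encode homeodomain factors of the cervical and thoracic body axis, and Hoxb8 and Hoxb7 also act in blood cell progenitors.

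Hoxb5 had log2 signals of -2.12, -1.15, -1.68 and -1.43 in the miR-126-/- mice, against -3.83, -2.23, -3.12 and -3.82 in the miR-126+/+ mice. The lowest miR-126-/- value and the highest miR-126+/+ value, that of mouse 2, lay close together, and the difference was 1.65 ± 0.38 (SE, n = 4 each). All 8 arrays were above background for this gene.

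Hoxb6 had -2.54, -2.01, -2.26 and -2.11 in the miR-126-/- mice, against -4.60, -3.10, -3.57 and -4.58 in the miR-126+/+ mice, a difference of 1.74 ± 0.35 (SE, n = 4 each). As for Hoxb5, miR-126+/+ mice 2 and 3 were the higher of their group and mice 1 and 4 the lower. The probe was above background on 4 miR-126-/- and 3 miR-126+/+ arrays.

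Hoxb7 had -2.55, -2.16, -2.03 and -2.46 in the miR-126-/- mice, against -5.04, -5.48, -4.31 and -5.27 in the miR-126+/+ mice. It was above background on 4 miR-126-/- arrays and on 0 miR-126+/+ arrays. The fold is therefore a bound, for which each miR-126+/+ array counted at its detection limit, or at its Hoxb7 value where that was higher. By this bound the gene was higher in miR-126-/- arteries by at least 5.55-fold, beside measured means of -2.30 in miR-126-/- and -5.02 in miR-126+/+ arteries.

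Hoxb8 had -4.00, -3.61 and -3.27 in the 3 miR-126-/- mice with a value, against -7.13, -6.93, -6.79 and -7.61 in the miR-126+/+ mice. All 3 miR-126-/- arrays were above background and none of the 4 miR-126+/+ arrays was, and by the same bound the gene was higher in miR-126-/- arteries by at least 2.33-fold. With the dim area kept, the spot of miR-126-/- mouse 4 read -5.12, not above background, and still above all miR-126+/+ values. Since the miR-126+/+ values of Hoxb7 and Hoxb8 are limits, no order of effect between Hoxb5, Hoxb6, Hoxb7 and Hoxb8 can be read from these arrays.

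**Figure D2:**
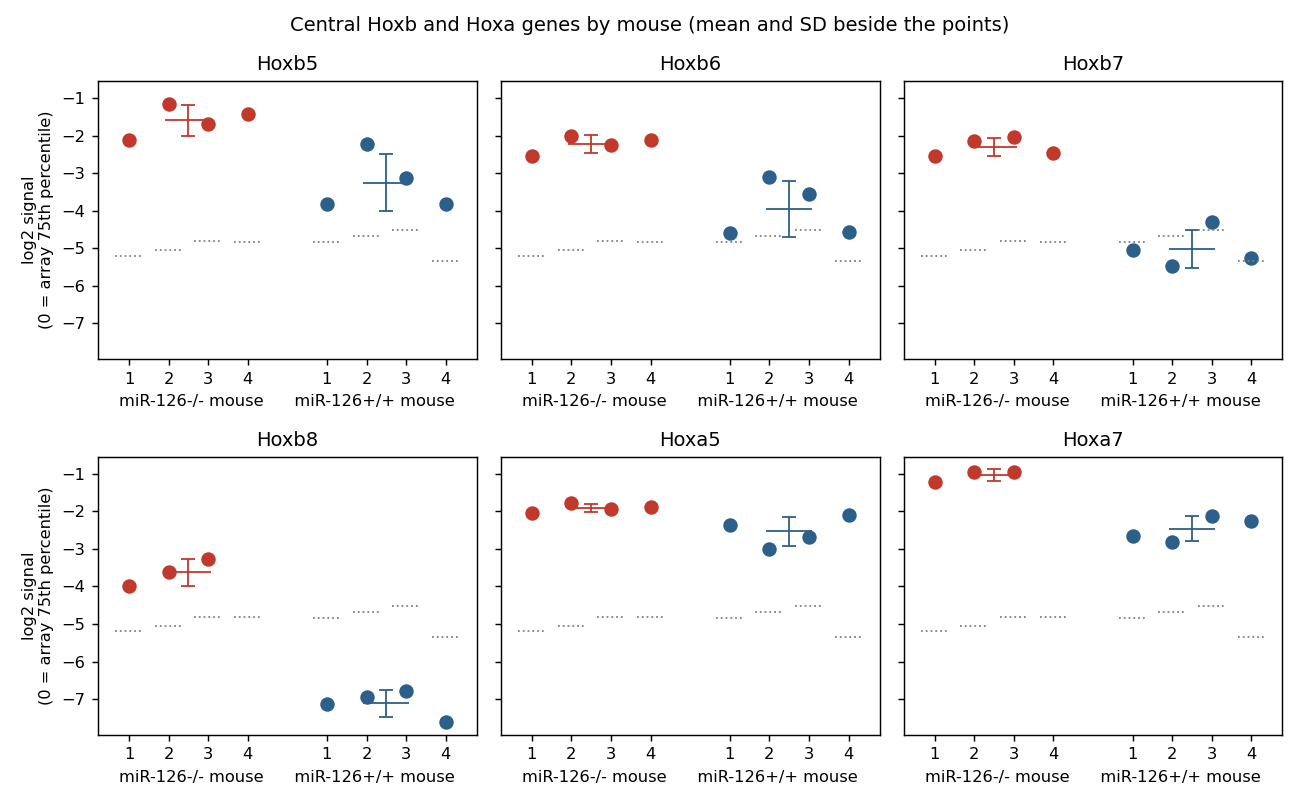
Log2 signal (0 is the 75th percentile of the array) of 6 Hox genes in each mouse, miR-126-/- in red on the left and miR-126+/+ in blue on the right of each panel. Crosses give mean and SD, and dotted lines the lowest signal well above background on that array. Hoxb8 and Hoxa7 have no value for miR-126-/- mouse 4, and the blue Hoxb8 points, from -7.61 to -6.79, lie below every dotted line.

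On either side of these 4 genes, the Hox probes did not separate the genotypes, and beyond Hoxb8 no difference could have been seen, since the signals lay below background. Hoxb9 had -7.21, -7.02, -6.77 and -6.83 in the miR-126-/- mice, against -6.96, -6.82, -6.70 and -7.47 in the miR-126+/+ mice, all below background. Hoxb13, at the far end of the cluster and known from prostate and tail development, had -7.14, -6.96, -6.73 and -6.78 in the miR-126-/- mice, against -6.78, -6.59, -6.49 and -7.23 in the miR-126+/+ mice, again all below background. On the other side Hoxb4, a factor known from haematopoietic stem cell expansion, averaged 1.27 ± 0.09 in miR-126-/- and 1.03 ± 0.15 in miR-126+/+ arteries (SD, n = 4 each) and overlapped. Hoxb2 averaged 0.77 ± 0.17 in miR-126-/- and 0.66 ± 0.34 in miR-126+/+ arteries, and the 2 probes of Hoxb3 differed by 0.08 and 0.41, all with overlap. Hoxb1 was below background on all 8 arrays.

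**Figure D3:**
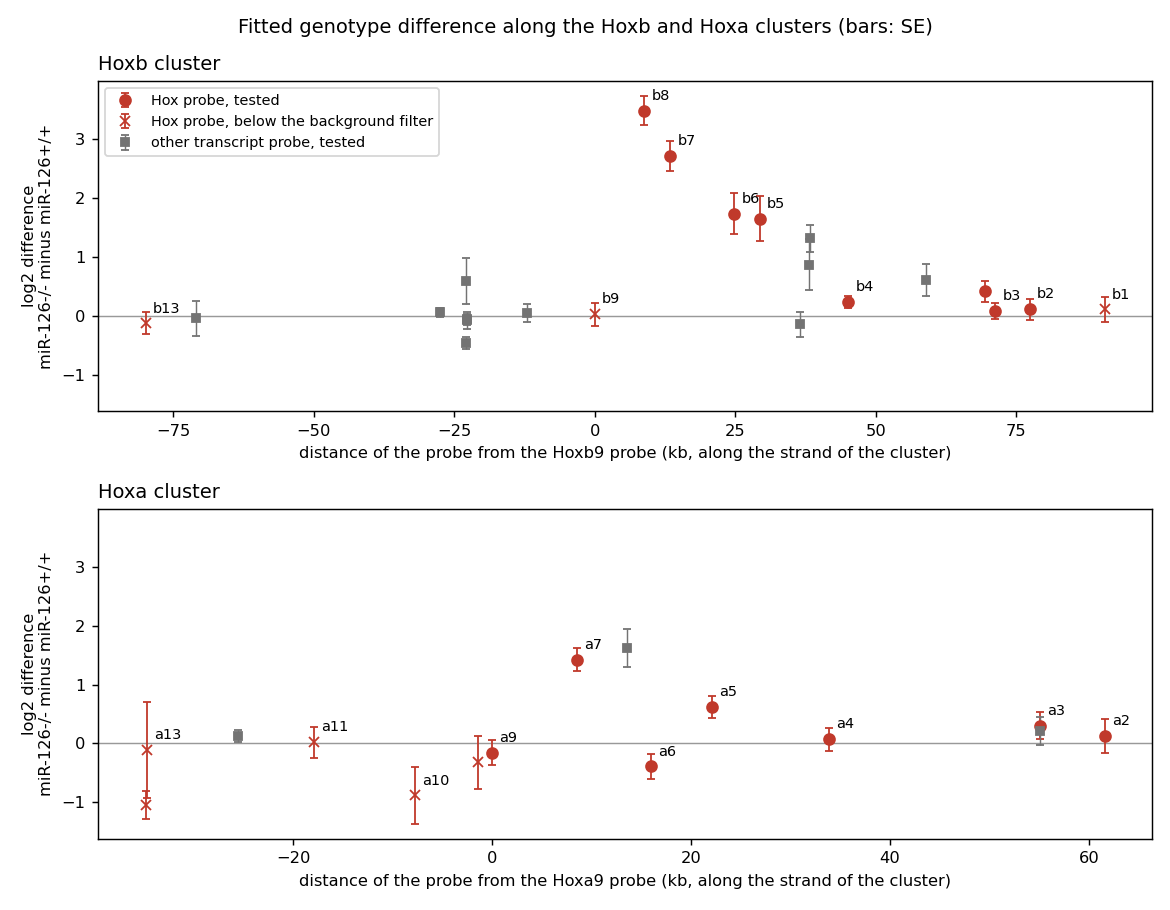
Fitted log2 difference, miR-126-/- minus miR-126+/+, by distance of each probe from the Hoxb9 probe (top) or the Hoxa9 probe (bottom), in kb along the transcribed direction; bars are SE. Filled circles are tested Hox probes, crosses are Hox probes below the background filter and grey squares other tested transcripts of the cluster. The 4 highest circles of the Hoxb panel are Hoxb8, Hoxb7, Hoxb6 and Hoxb5, of which Hoxb7 and Hoxb8 rest on miR-126+/+ values below background.

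In the Hoxa cluster, Hoxa5 and Hoxa7 were higher in all measured miR-126-/- arteries. Hoxa5, a factor of lung and cervical patterning that is also expressed in adipose tissue and endothelium, had -2.05, -1.78, -1.95 and -1.88 in the miR-126-/- mice, against -2.36, -3.00, -2.68 and -2.11 in the miR-126+/+ mice. The genotypes were separated narrowly, between -2.05 in miR-126-/- mouse 1 and -2.11 in miR-126+/+ mouse 4, and the difference was 0.62 ± 0.19 (SE, n = 4 each).

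Hoxa7, a thoracic patterning gene, had -1.22, -0.95 and -0.95 in 3 miR-126-/- mice, against -2.67, -2.81, -2.12 and -2.26 in the miR-126+/+ mice, a difference of 1.42 ± 0.19 (SE, n = 3 and 4). Its spot on the array of miR-126-/- mouse 4 lay in the dim area. With that area kept, the spot read -6.48, not above background, and the difference was 0.065 ± 1.19 (SE, n = 4 each), so the Hoxa7 difference rests on leaving out that spot.

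Other detected Hoxa genes overlapped between genotypes. Hoxa3, a gene of the pharyngeal arches and of the carotid body, averaged 2.10 ± 0.21 in miR-126-/- and 1.80 ± 0.47 in miR-126+/+ arteries (SD, n = 4 each). Hoxa6, which lies between Hoxa5 and Hoxa7, averaged -4.34 ± 0.39 in miR-126-/- and -3.95 ± 0.25 in miR-126+/+ arteries, and its difference of -0.39 ran the other way from those of its neighbours. Hoxa2, Hoxa4 and Hoxa9 differed by 0.13, 0.07 and -0.15, and the second Hoxa9 probe did not pass the background filter.

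In the Hoxd cluster, 2 genes near the limit of detection separated the genotypes in opposite directions. Hoxd3, a homeobox gene known to act in endothelial cells during vessel growth, had -4.63, -3.75, -3.80 and -3.71 in the miR-126-/- mice, against -4.93, -5.33, -5.79 and -4.80 in the miR-126+/+ mice, a difference of 1.24 ± 0.28 (SE, n = 4 each), and of 0.28 ± 0.12 with normexp correction. It was above background on 4 miR-126-/- arrays and 1 miR-126+/+ array.

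Hoxd11, a posterior gene that patterns limb and kidney, had -6.45, -5.63, -6.71 and -6.20 in the miR-126-/- mice, against -3.75, -4.86, -3.90 and -4.93 in the miR-126+/+ mice. It was above background on 0 miR-126-/- and 3 miR-126+/+ arrays, and by the bound was lower in miR-126-/- arteries by at least 1.52-fold. A second Hoxd11 probe was below background on all 8 arrays and differed by 0.08, so the lower value rests on 1 of 2 probes. With normexp correction the first probe differed by -0.49 ± 0.15 on the log2 scale.

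Hoxd4, a hindbrain and neck patterning gene, averaged 0.05 ± 0.61 in miR-126-/- and -0.51 ± 0.96 in miR-126+/+ arteries (SD, n = 4 each). Hoxd10, which in mouse patterns lumbar motor neurons, averaged -4.19 ± 0.32 in miR-126-/- and -4.37 ± 0.16 in miR-126+/+ arteries. Hoxd4, Hoxd8, Hoxd9 and Hoxd10 overlapped between genotypes, with differences of 0.56, 0.03, -0.20 and 0.18.

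The Hoxc cluster showed no separation, and its most anterior gene varied widely within a genotype. Hoxc4 had -0.02, -1.78, -0.82 and -1.91 in the miR-126-/- mice, against 0.07, 0.51, -3.59 and -1.45 in the miR-126+/+ mice. The means were -1.13 ± 0.89 in miR-126-/- and -1.12 ± 1.85 in miR-126+/+ arteries (SD, n = 4 each). Hoxc10, a gene known from hindlimb and subcutaneous fat, averaged -4.66 ± 1.04 in miR-126-/- and -4.09 ± 0.87 in miR-126+/+ arteries, with overlap. Hoxc5 and Hoxc6 differed by -0.14 and 0.20.

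Counted over the 26 tested Hox probes, 7 were higher without overlap in miR-126-/- arteries, 1 was lower without overlap and 18 overlapped. Over all 32480 tested probes, 3.61% were higher without overlap and 2.44% lower without overlap. The Hoxb7 and Hoxb8 probes were among the 14 probes, 0.0431% of those tested, with an adjusted p under 0.05 in limma, of which 7 (0.0216%) were higher and 7 (0.0216%) lower. Since these differences chose the members, nothing is read from either count. Over all 44 Hox probes, tested or not, 25 had a positive and 19 a negative difference, with a median difference of 0.05, beside -0.04 over all 55681 probes. Without the 2 arrays rich in skeletal muscle transcripts, limma called 0 probes, while 2672 probes stood under 0.05 before adjustment.

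Some other transcripts inside the clusters also separated the genotypes. The intergenic transcripts and Hoxb5os named here were chosen after their values were seen and get no test of their own. The Hoxd3os1 and Hoxaas3 probes, also higher without overlap, belong to a list below and are given there. A long intergenic transcript between Hoxb5 and Hoxb4, read by a probe at chr11:96175970-96176029 on the plus strand (mm9), averaged -3.32 in miR-126-/- and -4.63 in miR-126+/+ arteries, without overlap, and a second probe of it differed by 0.87 with overlap. The first of these probes was above background on 4 miR-126-/- and 2 miR-126+/+ arrays. Of 39 probes of other transcripts inside the clusters, 19 were tested, of which 3 were higher and 1 lower without overlap. Over all 32480 tested probes, 3.61% were higher and 2.44% lower without overlap, and nothing is read from this count. The lower probe, at chr11:96114887-96114946 on the minus strand (mm9), reads an intergenic transcript between Hoxb13 and Hoxb9. It differed by -0.46 ± 0.11 (SE) and was above background on 4 arrays of each genotype. Another tested probe of that transcript differed by -0.08 with overlap. The Hoxb5 antisense transcript Hoxb5os averaged -4.46 in miR-126-/- and -6.33 in miR-126+/+ arteries and was above background on 2 and 0 arrays, too few to be tested.

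The 6 gene lists around Hox control held 130 genes, of which 118 had a probe and 103 were tested. None passed the adjusted threshold in limma, and 10 genes had p under 0.05 before adjustment, beside 9.96% of all tested probes. Of the TALE partners, 3 of 11 had a positive and 8 a negative difference (median -0.09). Tgif2, a TALE repressor, differed by -0.20 (adjusted p = 0.544 in limma).

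Among chromatin regulators of the clusters, 14 of 22 Polycomb genes had a positive and 8 a negative difference (median 0.03). Pcgf2, the Polycomb subunit also called Mel18, differed by 0.27 for its brightest probe (adjusted p = 0.489 in limma) and by -0.00 for its other tested probe. Cbx2 differed by -0.28, and Ezh2, the H3K27 methyltransferase, by 0.00. A second probe of Rbbp4, a histone-binding subunit, differed by 1.10, against 0.07 for its brightest probe. Of 14 Trithorax and H3K27 demethylase genes 7 had a positive and 7 a negative difference. The members of that list with the smallest unadjusted p were Dot1l, an H3K79 methyltransferase, which differed by 0.24, and Psip1, a chromatin reader, which differed by -0.15.

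Of 21 genes of Cdx and retinoic acid control, 17 were tested, 8 with a positive and 9 with a negative difference (median -0.10). Cdx1, Cdx2 and Cdx4, the caudal factors that induce central Hox genes in the embryo, did not reach the background filter, nor did Cyp26c1, a retinoic acid hydroxylase. Rdh10, which makes retinaldehyde, averaged -0.42 ± 0.29 in miR-126-/- and 0.17 ± 0.44 in miR-126+/+ arteries (SD, n = 4 each, adjusted p = 0.467 in limma). Aldh1a2, which makes retinoic acid, differed by 0.47 in the direction of miR-126-/- (adjusted p = 0.606 in limma).

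Of 32 genes inside or beside the clusters, 16 were tested, 10 with a positive and 6 with a negative difference (median 0.08). The antisense RNA Hoxd3os1 averaged -3.45 ± 0.14 in miR-126-/- and -4.16 ± 0.10 in miR-126+/+ arteries, without overlap (SD, n = 4 each; adjusted p = 0.076 in limma). The probe listed for the antisense RNA Hoxaas3 averaged -4.27 ± 0.08 in miR-126-/- and -5.89 ± 0.74 in miR-126+/+ arteries (adjusted p = 0.168 in limma). It was above background on 4 and 0 arrays, so its p rests on miR-126+/+ signals below background. This probe lies on the minus strand, as the Hoxa probes do, so its signal cannot be given to an antisense RNA. The Hoxd3os1 and Hoxaas3 probes were also counted above among other transcripts inside the clusters.

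Of 30 positional transcription factors outside the Hox clusters, 23 were tested, 11 with a positive and 12 with a negative difference (median -0.02). Lhx3, a LIM homeobox gene of pituitary and motor neurons, averaged -3.80 ± 0.41 in miR-126-/- and -6.02 ± 0.51 in miR-126+/+ arteries, where it was below background on all 4 arrays (SD, n = 4 each; adjusted p = 0.061 in limma). The Lhx3 probe thus passed the filter through miR-126-/- only, and its p rests on miR-126+/+ signals below background. Irx3, an Iroquois homeobox gene that acts in adipose tissue and heart, averaged -1.25 ± 0.37 in miR-126-/- and -2.47 ± 0.51 in miR-126+/+ arteries, without overlap (adjusted p = 0.208 in limma).

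The promoter of Hoxb8 is printed because Hoxb8 was above background in miR-126-/- arteries only. The 300 bases around the RefSeq start lie at chr11:96281655-96281954 on the plus strand (GRCm38.p6). Capitals mark matches on either strand to TTTATNG, the letters bound by Cdx proteins, and to TGATNNAT, the letters bound by Pbx with a Hox partner.
Hoxb8 promoter: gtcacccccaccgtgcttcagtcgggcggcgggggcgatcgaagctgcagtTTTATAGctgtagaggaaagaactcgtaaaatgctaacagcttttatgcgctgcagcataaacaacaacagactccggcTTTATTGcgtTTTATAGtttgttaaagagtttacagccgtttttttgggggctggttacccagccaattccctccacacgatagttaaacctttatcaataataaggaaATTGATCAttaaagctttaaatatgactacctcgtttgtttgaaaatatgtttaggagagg
It held 3 matches to TTTATNG and 1 to TGATNNAT, none overlapping. Of 24 promoters of 22 Hox genes in the table, 2 held TTTATNG and 4 held TGATNNAT, beside 10.9% and 8.85% of all 32851 promoters. The promoters of Hoxa5 and Hoxa7 held neither. Hoxb5, Hoxb6 and Hoxb7 had no matched entry.

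Markers of the cell types that an injured carotid sample can hold were set beside the Hox values, as summed signals in multiples of the array's 75th percentile. The adipocyte list differed in the same direction throughout: all 20 of its 20 genes were higher in miR-126-/- arteries, by a median of 1.33. In limma 0 of them passed after adjustment and 16 had p under 0.05 before it, beside 9.96% of all tested probes. Its sum was 823.5 to 1391 in miR-126-/- arteries, against 372.3 to 791.8 in miR-126+/+ arteries, without overlap. The fibroblast sum was 1364 to 1401 in miR-126-/- and 1429 to 1954 in miR-126+/+ arteries, without overlap, with 4 of 10 genes higher. The median difference of that list was only -0.02. Its bright members Dcn and Fn1 differed by -0.84 and -0.77, so the sum does not stand for the whole list.

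Adipocyte sums and Hoxb values are given side by side for single mice, and the part of adipocytes in the Hox values was not tested. The miR-126+/+ mouse with the highest adipocyte sum of its genotype, mouse 4 at 791.8, had Hoxb5 at -3.82, Hoxb6 at -4.58 and Hoxb7 at -5.27. In miR-126+/+ mouse 2, at 538.5, these genes read -2.23, -3.10 and -5.48, and in miR-126-/- mouse 1, at 823.5, they read -2.12, -2.54 and -2.55. When the mean of the adipocyte list entered the fit, an alternative added after the data were seen, the differences were 1.27 ± 0.66 for Hoxb5, 1.53 ± 0.62 for Hoxb6, 3.15 ± 0.42 for Hoxb7 and 3.63 ± 0.41 for Hoxb8 (SE). The same fit gave 0.53 ± 0.34 for Hoxa5, 1.36 ± 0.33 for Hoxa7, 0.70 ± 0.44 for Hoxd3 and -0.92 ± 0.43 for Hoxd11, so that the Hoxd3 and Hoxd11 differences were smaller by over 1.5 times. The adipocyte list mean, like its sum, did not overlap between genotypes, so this fit cannot tell adipocyte signal from genotype. Its Hoxb7 and Hoxb8 values rest on miR-126+/+ signals below background, and Hoxb8 had no value for miR-126-/- mouse 4.

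The lymphocyte sum was 15.8 to 45.6 in miR-126-/- and 9.09 to 16.9 in miR-126+/+ arteries, with all 9 tested genes higher. Cd79a, above background on 2 miR-126-/- and 0 miR-126+/+ arrays, was not tested. The endothelial sum was 176.0 to 234.3 in miR-126-/- and 141.4 to 176.9 in miR-126+/+ arteries, with 14 of 15 genes higher and a median difference of 0.24. The smooth muscle sum was 533.1 to 849.6 in miR-126-/- and 568.5 to 656.8 in miR-126+/+ arteries. The parts of the lymphocyte, endothelial and fibroblast differences in the Hox values were not tested.

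Skeletal muscle transcripts marked 1 array of each genotype, with sums of 218.1 in miR-126-/- mouse 1 and 196.4 in miR-126+/+ mouse 2, against 6.80 to 36.9 on the other arrays. Without these arrays the differences were 2.17 ± 0.25 for Hoxb5, 2.13 ± 0.30 for Hoxb6, 2.65 ± 0.27 for Hoxb7 and 3.74 ± 0.28 for Hoxb8 (SE). Those of Hoxb7 and Hoxb8 rest on miR-126+/+ signals below background, and Hoxb8 had no value for miR-126-/- mouse 4. The highest miR-126+/+ values of Hoxb5 and Hoxb6 were those of the muscle-rich mouse 2. Epithelial and thymic lists were highest in miR-126-/- mouse 4, with sums of 26.0 and 14.2, where Pax8 and Pth were below background on all 8 arrays. Krt8 was above background on 2 miR-126-/- and 0 miR-126+/+ arrays, and Foxn1 on 1 and 0, and the part of these lists in the Hox values was not tested. Nerve, macrophage and red cell sums overlapped between genotypes.

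**Figure D4:**
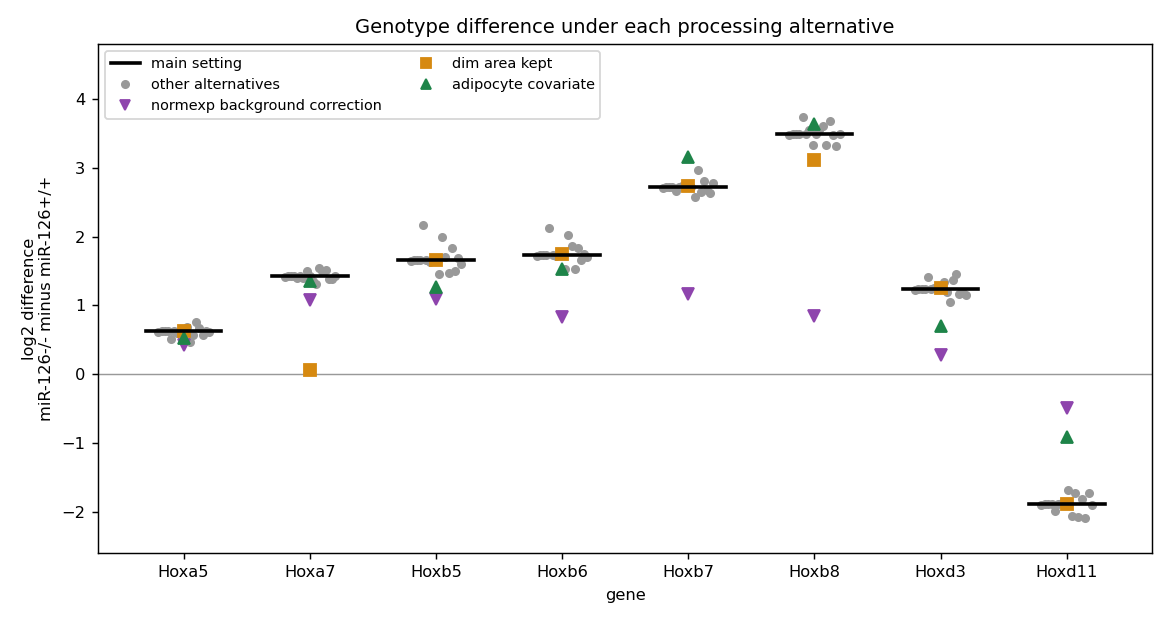
Log2 difference, miR-126-/- minus miR-126+/+, of 8 Hox genes under the main setting (black line) and each processing alternative (points), with 3 alternatives marked by colour. All points of the first 7 genes lie above 0 and all of Hoxd11 below 0, and the largest departures are those of normexp background correction and, for Hoxa7, of keeping the dim area (0.065).

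Signals were similar across arrays, with an array 75th percentile of 578.5 to 714.5 in miR-126-/- and 518.2 to 736.1 in miR-126+/+ mice, 57.8% to 60.5% and 55.9% to 61.5% of probes above background, and correlations between arrays of 0.963 to 0.987. The spatial trend fitted by the scanner software was not similar. It ran from 2.35 to 3.04 on the miR-126-/- arrays and from 2.05 to 2.25 on the miR-126+/+ arrays, without overlap. Its part in the Hox values near background was not tested. All 8 arrays were on 1 slide and in 1 scan, with the miR-126-/- arrays in row 2 and the miR-126+/+ arrays in row 1 of the slide, so the effects of row and genotype cannot be told apart.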

How the data were processed

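The authors deposited the scanner output of 8 arrays (4 miR-126-/-, 4 miR-126+/+), whose processed signals are linear intensity values, background-subtracted by Agilent Feature Extraction 10.7.3.1, per the file headers and the submitters' processing notes. A deposited table holds the same intensity values. Control spots, spots marked as outliers (146 to 216 per array) and a dim area of miR-126-/- array 4 (rows 55 to 100, columns 56 to 70, 662 spots) were left out, spots of a probe were averaged, and the array's 75th percentile was subtracted on the log2 scale. Every probe kept its own value. Genotypes were fitted in limma 3.58.1 (R 4.3.3) over 32480 probes, two-sided, with Benjamini-Hochberg adjustment and a threshold of 0.05. The fit was tested on simulated data. The number of arrays limits the precision. Named genes are all Hox genes in cluster order, with per-mouse values for Hoxb5 to Hoxb9, Hoxb13 and genes without overlap, and up to 2 genes of each other list by smallest unadjusted p. The Hox genes, the lists and the tests were chosen with earlier results of these data known. Genes named outside the rule (Ezh2, Rbbp4, the Cdx genes, Hoxb5os and the intergenic transcripts) were chosen after their values were seen. A few results are not reported here. Positions are mm9, per the file headers; RefSeq sequences are GRCm38.p6. Replicate numbers did not pair the mice: same-numbered mice correlated at 0.18, -0.31, -0.04 and 0.01.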

Additional observations from a re-analysis of the deposited data

Results flagged for a closer look

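Among 47 groups of Hox values examined, 1 held a mouse far from the others, where chance would mark about 1 in 20. Hoxd3 in miR-126-/- mouse 1 was -4.63, while the other three miR-126-/- mice lay between -3.80 and -3.71. This mouse also had the highest skeletal muscle sum, and the part of muscle in its Hoxd3 value was not tested. The other muscle-rich mouse, miR-126+/+ mouse 2, had Hoxd3 at -5.33, within the range of its genotype (-5.79 to -4.80).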

How the results depend on the processing

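The named Hox differences kept their sign under every alternative that gave a value, and Hoxb8 and Hoxd11 gave none when a probe had to be above background on all 4 arrays of a genotype. Normexp background correction reduced Hoxa5 to 0.42, Hoxa7 to 1.08, Hoxb5 to 1.09, Hoxb6 to 0.83, Hoxb7 to 1.17, Hoxb8 to 0.84, Hoxd3 to 0.28 and Hoxd11 to -0.49. The offset of 50 that this correction adds makes the log2 differences of dim probes smaller. Its share of each change was not tested. With adipocyte signal in the fit Hoxb7 was 3.15, Hoxd3 0.70 and Hoxd11 -0.92. With the dim area kept Hoxa7 was 0.065 and Hoxb8 3.12. Leaving out each mouse in turn gave 1.46 to 1.99 for Hoxb5, 1.52 to 2.02 for Hoxb6, 2.57 to 2.96 for Hoxb7 and 3.31 to 3.68 for Hoxb8. The 14 probes past the adjusted threshold in limma became 38 with normexp, 30 with the brightest probe per gene, and 0 with the adipocyte covariate (1410 at an unadjusted p under 0.05), without the 2 muscle-rich arrays (2672) and with the replicate number as a block (2942). Leaving out 1 mouse gave 0 to 56, with 0 without miR-126-/- mouse 2 (2520 unadjusted), 6 and 3 without miR-126-/- mice 1 and 3, 7 and 3 without miR-126+/+ mice 1 and 2, and 56 without miR-126+/+ mouse 4. The lists around Hox control had 0 members past the threshold in the main fit, and 0 to 1 over mice left out. The 1 member, Lhx3, passed with the brightest probe per gene or without miR-126+/+ mouse 4 (adjusted p = 0.049 and 0.033 in limma). Lhx3 was below background on all 4 miR-126+/+ arrays, so these p values rest on such signals and nothing is read from them. Detected Hox genes numbered 23 to 27 in miR-126-/- and 17 to 25 in miR-126+/+ arteries. The muscle and adipocyte alternatives were chosen after seeing the data. Signal over background limits Hoxb7, Hoxb8, Hoxd3 and Hoxd11.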
